A study of Mus musculus with 25 samples.

Results

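Echdc2, Scp2, Tal1, Klhl9 and Ccdc171 are 5 genes of mouse chromosome 4, of 13641 genes in the deposited table, whose read counts differed between libraries labelled WT and JAK2-mutant libraries or between mutant libraries with and without an IL-1 gene. They were chosen by those differences in read counts between genotypes, among genes at 83 to 116 Mb of the chromosome, so the genotype values below describe them and carry no test. The change with time and the spread within groups did not enter the choice directly and were tested. The mutant libraries of 2 weeks that were compared with WT also enter each change with time. These tests are therefore not fully independent of the choice. Hematopoietic stem cells, sorted as Lin-Sca1+cKit+CD48-CD150+, were taken from mice engrafted with marrow of 4 donor genotypes and profiled by low-input bulk RNA-seq in 25 libraries. Donors were SclCre;GFP (called WT), the same with the inducible human JAK2 mutant (VF), and VF with IL-1b-/- (Il1bKO) or IL-1R1-/- (Il1r1KO). Every group, WT included, is labelled as carrying SclCre and GFP, and tamoxifen was started 16 weeks after engraftment. Cells were taken 2 weeks after tamoxifen began in 4 libraries of each genotype (WT_2w, VF_2w, Il1bKO_2w, Il1r1KO_2w) and after 4 weeks in 3 libraries of each mutant genotype (VF_4w, Il1bKO_4w, Il1r1KO_4w). No library labelled WT was taken at 4 weeks, and both times were processed as separate batches, so time and batch cannot be told apart.

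SclCre is a tamoxifen-inducible Cre recombinase (CreERT2) expressed from regulatory sequences of Scl, another name of Tal1. TAL1 is a basic helix-loop-helix factor that binds E-boxes together with E proteins, LMO2, LDB1 and GATA factors, and blood stem cells cannot form without it. ECHDC2 is a mitochondrial protein of the enoyl-CoA hydratase family, whose enzymes act on the enoyl-CoA intermediates of fatty acid and branched-chain amino acid breakdown. Scp2 encodes a peroxisomal thiolase and sterol carrier protein 2, which serve the breakdown of branched fatty acids and the movement of lipids. KLHL9 is a substrate adaptor of cullin 3 ubiquitin ligases and acts with KLHL13 on Aurora B in mitosis, while CCDC171 is a coiled-coil protein of little described function.

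The libraries held 21990959 to 40178173 counted reads, and 11871 (Il1bKO_4w 5, which stood apart) to 13491 genes were detected. All 12 stem cell markers in the table were read in every group, among them Kit at 461 to 1282 CPM (counts per 1000000 reads of the scaled library size) and Meis1 at 461.5 to 735 CPM. Others were low, such as Hoxb5 at 6.72 to 31.8 CPM and Fgd5 at 8.15 to 98.4 CPM. Cd48, which the sort gates out, was at 0.606 to 17.1 CPM, and the progenitor genes Flt3 and Cd34 at 5.38 to 220 and 88.3 to 403 CPM. The stem cell markers summed to 3235 to 4321 CPM in WT_2w, 3007 to 3612 in VF_2w, 2992 to 3640 in Il1bKO_2w and 2910 to 3042 in Il1r1KO_2w, and 2629 to 2779, 2430 to 2820 and 2034 to 2563 in VF_4w, Il1bKO_4w and Il1r1KO_4w. The part of these markers in the results was not tested. The libraries labelled WT had 0, 0, 1 and 0 CreERT2 reads, against 5382 to 32987 in the 21 mutant libraries, although their label carries the Cre. Their pEGFP level was uneven, at 998, 518, 3.03 and 49.3 CPM, so differences from them are also given without WT_2w 3 and WT_2w 4. The 2 human JAK2 rows were at 0.733 CPM or less there and at 39.1 to 218 CPM in the mutant libraries, and pEGFP was higher in Il1r1KO (868 to 1473 CPM) than in VF and Il1bKO (385 to 541 CPM). Nothing in the labels ties replicate libraries to separate donors, so the errors measure the spread between these libraries.

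Echdc2 (ENSMUSG00000028601) lies at chr4:108165437-108179308 on the plus strand of mm10, and Scp2 (ENSMUSG00000028603) at chr4:108043839-108144998 on the minus strand, in GENCODE vM21. They stand head to head: the outermost annotated end of Scp2 is 20.4 kb from the start of Echdc2, and its RefSeq start is 46.9 kb away. Tal1 (ENSMUSG00000028717, chr4:115056426-115071755, plus strand) starts 6.89 Mb beyond Echdc2. Klhl9 (ENSMUSG00000070923, chr4:88718292-88722465, minus strand) and Ccdc171 (ENSMUSG00000052407, chr4:83525545-83864670, plus strand) start 19.4 and 24.6 Mb before it. The 250 bases before the RefSeq start (GRCm38.p6) are printed for Echdc2 and its divergent neighbour Scp2, the pair that lay closest, and for the first of 2 starts of Tal1, the gene whose sequences drive the Cre. Both strands were searched for 4 motifs, and capitals mark the matches. The general E-box is CANNTG. The form bound by TAL1 beside GATA factors, CAGATG, is a case of it. One GATA motif searched was AGATAA. The other was TGATAA, which shares its last 5 letters.
Echdc2, chr4:108165187-108165436, plus strand: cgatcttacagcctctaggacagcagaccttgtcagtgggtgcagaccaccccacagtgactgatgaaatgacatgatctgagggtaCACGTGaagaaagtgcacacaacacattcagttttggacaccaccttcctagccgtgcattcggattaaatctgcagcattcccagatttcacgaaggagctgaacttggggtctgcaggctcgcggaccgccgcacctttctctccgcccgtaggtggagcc
Scp2, chr4:108118548-108118797, minus strand: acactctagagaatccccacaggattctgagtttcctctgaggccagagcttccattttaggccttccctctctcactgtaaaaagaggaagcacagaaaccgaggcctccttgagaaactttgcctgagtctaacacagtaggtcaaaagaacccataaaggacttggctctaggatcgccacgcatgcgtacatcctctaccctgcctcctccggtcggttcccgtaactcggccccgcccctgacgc
Tal1, chr4:115056176-115056425, plus strand: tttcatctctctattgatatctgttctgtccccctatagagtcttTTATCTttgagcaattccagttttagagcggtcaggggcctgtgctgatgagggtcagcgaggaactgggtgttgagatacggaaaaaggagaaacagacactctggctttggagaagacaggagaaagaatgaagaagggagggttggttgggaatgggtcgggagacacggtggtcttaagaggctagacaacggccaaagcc
The Echdc2 stretch held 1 E-box, which began 163 bases before the start, and 66.0% of 27025 mouse promoters of this length held at least 1. The Tal1 stretch held 1 AGATAA on the other strand, a match found in 10.3% of promoters. No match was found before the starts of Scp2, Klhl9 or Ccdc171, nor before the other start of Tal1, and 14.5% and 8.16% of promoters held CAGATG and TGATAA. CpG pairs numbered 11 before Echdc2, 10 before Scp2, 6 and 16 before the Tal1 starts, 19 before Klhl9 and 39 and 37 before the Ccdc171 starts, beside a median of 6 over all promoters. These letters are a description and say nothing of binding in these cells.

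Echdc2 was close to absent in the libraries labelled WT and at 292 CPM or more in every mutant library. It was at 4.29, 4.81, 2.62 and 5.79 CPM in WT_2w, on 72 to 158 reads per library, and at 445.1, 392.0, 321.4 and 370.4 CPM in VF_2w. Il1bKO_2w held 570, 731, 709 and 671 CPM, and Il1r1KO_2w held 731, 657, 663 and 717 CPM. No mutant library came near a library labelled WT, and both knockout groups lay above VF_2w without overlap. At 4 weeks Echdc2 was at 502, 292 and 479 CPM in VF_4w, at 956, 653 and 521 in Il1bKO_4w and at 593, 593 and 523 in Il1r1KO_4w. The VF_4w libraries were again the lowest of the mutant ones, and the highest value belonged to Il1bKO_4w 5, the library with the fewest genes detected. Since these are bulk samples, fewer cells of a type and less RNA per cell cannot be told apart.

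The mean of Echdc2 rose from 4.38 ± 1.32 CPM (SD, n = 4) in WT_2w to 382 ± 51.3 in VF_2w, 670 ± 71.6 in Il1bKO_2w and 692 ± 37.7 in Il1r1KO_2w, which is 87.3, 153 and 158 times the level of WT. On the log2 scale of the fit the differences were 6.45 (SE 0.24), 7.26 (SE 0.25) and 7.30 (SE 0.25), and 6.39, 7.20 and 7.24 without WT_2w 3 and WT_2w 4. Against VF, the log2 difference over both times was 0.78 (SE 0.14) in Il1bKO and 0.64 (SE 0.14) in Il1r1KO. Without VF_4w 6, Il1bKO_4w 5 and Il1r1KO_4w 5, libraries that stood apart in genes detected, scaling factor or correlation to the others, these were 0.53 and 0.52. The knockouts differed from each other by −0.14 (SE 0.14). In the order of group means, WT_2w was followed by VF_2w, VF_4w, Il1r1KO_4w, Il1bKO_2w, Il1r1KO_2w and Il1bKO_4w, with gaps only between WT_2w and VF_2w and between VF_4w and Il1r1KO_4w.

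**Figure D1:**
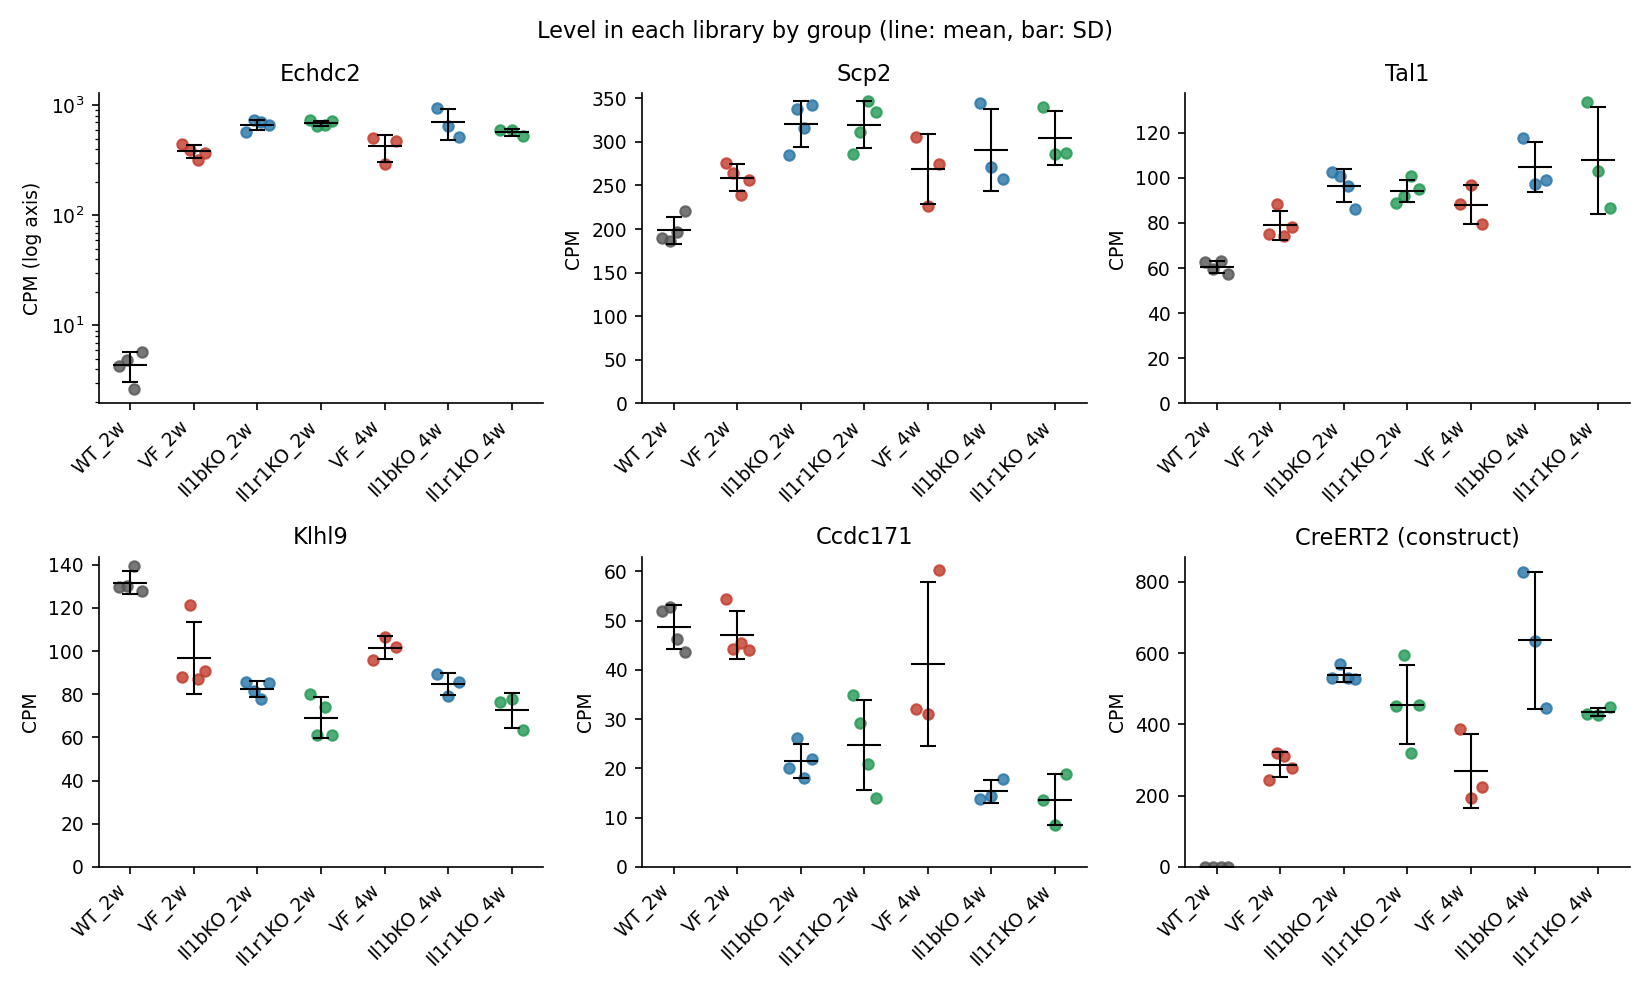
Level of the 5 genes and of the CreERT2 construct in each of the 25 libraries, in CPM, by group (points: libraries, line: mean, bar: SD, log axis for Echdc2 only). Echdc2 lies between 2.62 and 5.79 CPM in WT_2w and at 292 CPM or more in all 21 mutant libraries, and the libraries labelled WT are also the lowest in Scp2 and Tal1 and the highest in Klhl9.

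Within its own family Echdc2 moved from near the bottom to the top. Per kilobase of exon its mean level was 1.92 CPM in WT_2w, which ranked 12 of 13 enoyl-CoA hydratase family genes, above Echdc3 only (1.01 CPM per kb). In the mutant groups it ranked 1 of 13, at 167 CPM per kb in VF_2w to 311 in Il1bKO_4w. Ech1, a peroxisomal and mitochondrial dienoyl-CoA isomerase and the family's most abundant gene in WT_2w, stayed between 86.9 and 104 CPM per kb in all 7 groups. Echdc1, which clears ethylmalonyl-CoA, lay between 40.9 and 47.9 CPM per kb.

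The other 12 family genes gave no call in any of the 6 genotype comparisons by edgeR's quasi-likelihood test at an adjusted p under 0.05. The share called over all 13630 tested genes was itself low, at 0.00734% in VF against WT, 0.044% in Il1bKO against WT, 0.0587% in Il1r1KO against WT, 0.139% in Il1bKO against VF, 0.169% in Il1r1KO against VF and 0.176% between the knockouts. The tested genes include Echdc2 and the other genes chosen by these differences, so these shares are not independent of the choice. In VF against WT the share was 1 gene. Which of the chosen genes were called is not given, since their genotype differences carry no test. By unadjusted p under 0.05, 310, 422, 815, 1278, 1553 and 1917 of all 13630 genes were counted in these comparisons, in the same order. The unadjusted counts of each list below stand beside these. Of the 12 genes, 0 to 2 had an unadjusted p under 0.05 in a comparison, DESeq2 and limma voom called none of them, and their median log2 difference ran from −0.04 to 0.06, beside −0.01 to 0.02 over all tested genes. The lowest p belonged to Echs1, the mitochondrial short-chain enoyl-CoA hydratase, in Il1bKO against VF (−0.34, SE 0.13, adjusted p = 0.436). Ech1 in Il1r1KO against VF followed (0.17, SE 0.07, adjusted p = 0.378).

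**Figure D2:**
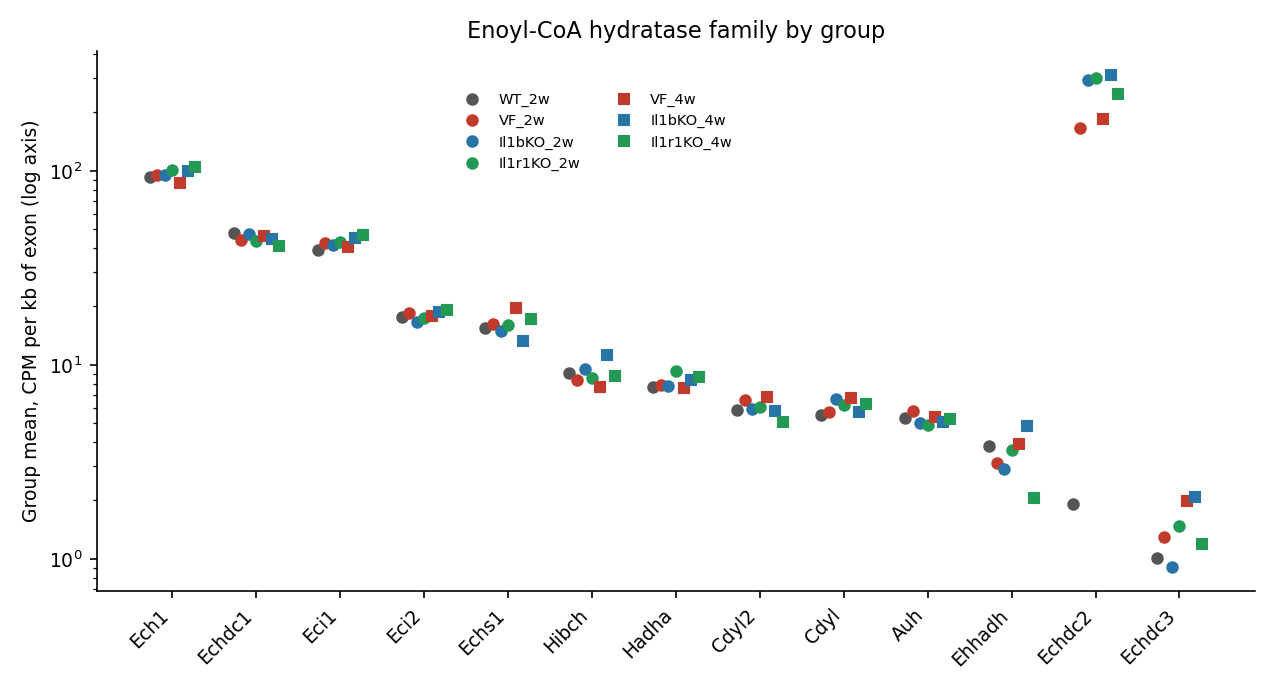
Group mean level of 13 enoyl-CoA hydratase family genes in CPM per kb of exon (log axis), ordered by their level in WT_2w, with circles for 2 weeks and squares for 4 weeks. Echdc2 goes from 1.92 CPM per kb in WT_2w to 167 or more in the mutant groups, while Ech1 stays between 86.9 and 104.

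Scp2, the divergent neighbour of Echdc2, was higher in the mutant libraries by a much smaller factor. It was at 190, 186, 196 and 221 CPM in WT_2w and at 275, 264, 239 and 257 in VF_2w. Il1bKO_2w held 285, 338, 316 and 342 CPM, and Il1r1KO_2w held 286, 311, 347 and 334. The 3 mutant groups of 2 weeks each lay above WT_2w without overlap, and both knockout groups lay above VF_2w. At 4 weeks the groups ran together: VF_4w was at 306, 226 and 274 CPM, Il1bKO_4w at 345, 272 and 257, and Il1r1KO_4w at 340, 286 and 287.

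The log2 difference of Scp2 from WT was 0.38 (SE 0.11) in VF, 0.69 (SE 0.11) in Il1bKO and 0.69 (SE 0.11) in Il1r1KO, and 0.46, 0.77 and 0.76 without WT_2w 3 and WT_2w 4. From VF it was 0.31 (SE 0.11) in Il1bKO at 2 weeks but 0.12 (SE 0.12) at 4 weeks, and 0.31 (SE 0.11) and 0.18 (SE 0.12) in Il1r1KO. Over both times these came to 0.21 (SE 0.08) and 0.24 (SE 0.08), and to 0.09 and 0.14 without the 3 libraries that stood apart. The knockouts differed by 0.03 (SE 0.08). Of the 22 peroxisomal oxidation genes on the list, none was called in the 6 genotype comparisons by edgeR, and 1 to 3 had an unadjusted p under 0.05 in each. Acaa1a, a peroxisomal thiolase like the long product of Scp2, differed by 0.31 (SE 0.10) in Il1r1KO against WT (adjusted p = 0.508).

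Tal1 was higher in every mutant library than in any library labelled WT. WT_2w held 62.5, 59.4, 62.9 and 57.3 CPM, and VF_2w held 74.9, 88.2, 74.3 and 78.4. Il1bKO_2w was at 102.5, 100.9, 96.4 and 86.1 CPM and Il1r1KO_2w at 88.8, 91.9, 100.7 and 95.0. Il1r1KO_2w lay above VF_2w without overlap, and Il1bKO_2w reached into it through a single library. At 4 weeks VF_4w held 88.3, 96.8 and 79.3 CPM, Il1bKO_4w 117.5, 97.3 and 99.1, and Il1r1KO_4w 133.5, 103.1 and 86.7. Il1bKO_4w was above VF_4w in all libraries, by a margin under 1 CPM at its lowest, and Il1r1KO_4w overlapped it.

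The log2 difference of Tal1 from WT was 0.38 (SE 0.11) in VF, 0.67 (SE 0.11) in Il1bKO and 0.64 (SE 0.11) in Il1r1KO, and 0.37, 0.66 and 0.63 without WT_2w 3 and WT_2w 4. From VF it was 0.27 (SE 0.09) in each knockout over both times, and the knockouts differed by 0.00 (SE 0.09). The part of the Scl sequences of the transgene in the Tal1 counts was not tested. Erythroid and megakaryocyte genes, which Tal1 serves in those lineages, were read beside it: the 14 erythroid markers summed to 188 to 243 CPM in WT_2w, 201 to 391 in VF_2w, 240 to 305 in Il1bKO_2w and 205 to 408 in Il1r1KO_2w, and to 370 to 829.2, 269 to 476 and 301 to 662 in the 4-week groups. The 12 megakaryocyte markers summed to 1265 to 1527 CPM in WT_2w, 1157 to 1529 in VF_2w, 1182 to 1596 in Il1bKO_2w and 1094 to 2060 in Il1r1KO_2w. At 4 weeks they summed to 1296 to 3410 CPM in VF_4w, 1029 to 1213 in Il1bKO_4w and 1543 to 1914 in Il1r1KO_4w. The 12 neutrophil and monocyte markers summed to 151 to 412 CPM in WT_2w and to 102 to 435 CPM over the mutant libraries. Slc4a1, a red cell membrane marker, and Gp6, a platelet receptor, had a median of 0 CPM, while the globin gene Hbb-bt had a median of 57.2 CPM and the platelet genes Pf4 and Vwf 72.5 and 222 CPM. The part of these cells in the Tal1 values was not tested.

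Genes of the TAL1 complex and related stem cell factors did not give a call. Of 27, none passed edgeR in the 6 genotype comparisons, 1 to 5 had an unadjusted p under 0.05 in each, and their median log2 difference ran from −0.06 to 0.07. Ssbp4, which stabilises LDB1, came nearest with 0.58 (SE 0.13, adjusted p = 0.173) in Il1r1KO against WT, and Hdac1, a histone deacetylase and corepressor, with 0.28 (SE 0.07, adjusted p = 0.0858) in Il1r1KO against VF. DESeq2 and limma voom called both. Gata1, an erythroid and megakaryocyte partner of TAL1 named here because DESeq2 called it in both knockouts against WT, differed by 1.20 (SE 0.36) in VF, 1.38 (SE 0.37) in Il1bKO and 1.51 (SE 0.37) in Il1r1KO from WT (edgeR adjusted p = 1, 0.56 and 0.215).

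Klhl9 went the other way and was highest in the libraries labelled WT, at 129.5, 130.1, 139.6 and 127.8 CPM. VF_2w held 88.2, 121, 86.9 and 90.8 CPM, Il1bKO_2w 85.5, 81.3, 78.0 and 85.3, and Il1r1KO_2w 80.01, 61.0, 74.1 and 61.3. The order WT, VF, Il1bKO, Il1r1KO held for the group means at 2 weeks, and both knockout groups lay below VF_2w without overlap. At 4 weeks VF_4w was at 95.9, 106.5 and 102.0 CPM, Il1bKO_4w at 89.3, 79.2 and 85.5, and Il1r1KO_4w at 76.5, 78.0 and 63.4. These 3 groups followed the same order, and none overlapped another.

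The log2 difference of Klhl9 from WT was −0.44 (SE 0.11) in VF, −0.67 (SE 0.11) in Il1bKO and −0.93 (SE 0.11) in Il1r1KO, and −0.42, −0.66 and −0.91 without WT_2w 3 and WT_2w 4. From VF it was −0.25 (SE 0.09) in Il1bKO and −0.48 (SE 0.09) in Il1r1KO, and Il1r1KO was below Il1bKO by −0.24 (SE 0.09). Gm26566, an antisense gene, overlaps Klhl9 by 661 bp, and because the libraries were unstranded reads of the shared stretch cannot be told apart. It was counted at 10.6 to 11.2 CPM in WT_2w, 5.17 to 8.55 in VF_2w, 3.90 to 5.26 in Il1bKO_2w and 2.94 to 4.28 in Il1r1KO_2w. Of the 14 cullin 3 and chromosomal passenger genes, none was called in the 6 genotype comparisons by edgeR, while 0 to 6 had an unadjusted p under 0.05. The 6 were in Il1r1KO against VF, where 1553 of all 13630 tested genes had one, and they were not tested as a set. Ube2m, which loads NEDD8 on cullins, came nearest in Il1r1KO against VF (0.32, SE 0.09, adjusted p = 0.172) and was called there by limma voom, and Aurkb, which encodes Aurora B, differed by 0.48 (SE 0.19, adjusted p = 0.347).

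Ccdc171 did not separate VF from WT and was low in both knockouts. It was at 52.1, 52.8, 46.3 and 43.6 CPM in WT_2w and at 54.3, 44.4, 45.6 and 44.0 in VF_2w, which overlapped. Il1bKO_2w held 20.1, 26.2, 17.97 and 22.0 CPM and Il1r1KO_2w 34.8, 29.2, 21 and 14.0, all below the lowest VF_2w and WT_2w library. At 4 weeks VF_4w was at 32.1, 31.1 and 60.4 CPM, Il1bKO_4w at 13.8, 14.4 and 17.9, and Il1r1KO_4w at 13.7, 8.56 and 18.8. The knockout libraries were again lower, and VF_4w 7 was far above the other VF_4w libraries.

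From WT, Ccdc171 differed by −0.05 (SE 0.26) in VF, −1.17 (SE 0.26) in Il1bKO and −0.98 (SE 0.26) in Il1r1KO on the log2 scale, and by −0.16, −1.28 and −1.08 without WT_2w 3 and WT_2w 4. From VF the difference was −1.28 (SE 0.20) in Il1bKO and −1.26 (SE 0.20) in Il1r1KO over both times. By time it was −1.13 and −1.43 in Il1bKO and −0.93 and −1.59 in Il1r1KO at 2 and 4 weeks. The knockouts differed by 0.02 (SE 0.20).

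**Figure D3:**
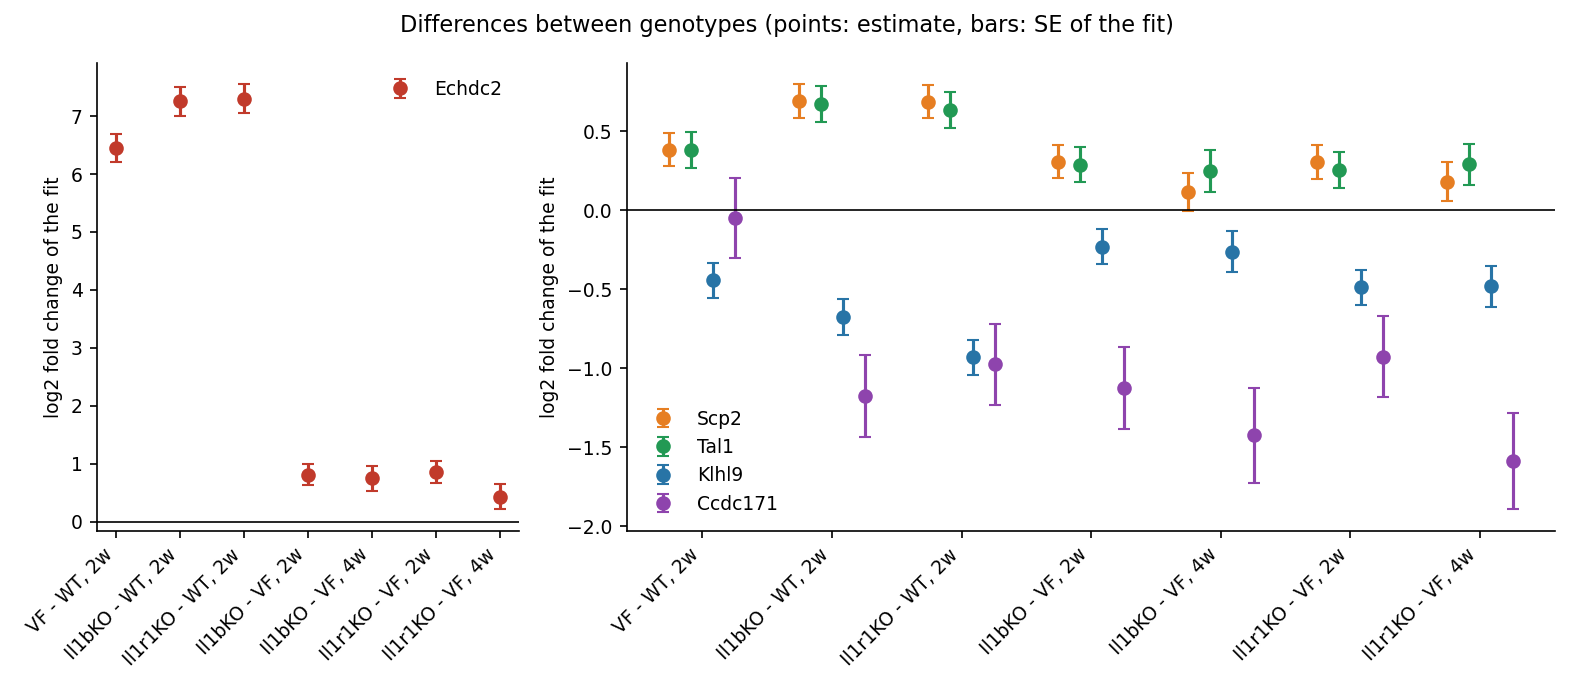
Log2 differences between genotypes for Echdc2 (left) and the other 4 genes (right), with the SE of the fit as bars. Echdc2 lies at 6.45 to 7.30 against WT and at 0.43 to 0.86 against VF, Scp2 and Tal1 lie above 0 and Klhl9 below 0 in every comparison shown, and Ccdc171 is near 0 only in VF against WT.

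Counted by libraries that did not overlap between groups, 3 of the 5 genes were higher and 1 lower in VF_2w than in WT_2w, where 1.87% and 1.8% of all tested genes were. In Il1bKO_2w against WT_2w 3 were higher and 2 lower (1.67% and 2.27% of all), and likewise in Il1r1KO_2w against WT_2w (2.43% and 2.36%). Against VF at 2 weeks the counts were 2 higher and 2 lower in Il1bKO (1.56% and 2.08%) and 3 higher and 2 lower in Il1r1KO (1.92% and 2.09%). At 4 weeks they were 2 and 2 in Il1bKO (5.72% and 7.3%) and 1 and 2 in Il1r1KO (6.46% and 6.65%). Between the knockouts only Klhl9 at 4 weeks did not overlap, lower in Il1r1KO, as 4.41% of all tested genes were. The genes were chosen for these differences and comparisons to one control group share its libraries, so nothing is read from the counts.

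None of the 5 genes changed between 2 and 4 weeks within VF, Il1bKO or Il1r1KO by edgeR's quasi-likelihood test at an adjusted p under 0.05, where 0.022%, 0.748% and 2.46% of all tested genes did. Echdc2 differed by 0.15 (SE 0.20, adjusted p = 0.902) in VF, 0.08 (SE 0.20, adjusted p = 0.849) in Il1bKO and −0.28 (SE 0.20, adjusted p = 0.497) in Il1r1KO. In Il1r1KO the 3 libraries of 4 weeks lay below all 4 of 2 weeks, as in 7.58% of all tested genes. The estimates for Scp2, Tal1 and Klhl9 were between −0.14 and 0.19 with SE of 0.11 to 0.12, and their adjusted p was 0.415 or more. Ccdc171 came nearest, with −0.85 (SE 0.28, unadjusted p = 0.00624, adjusted p = 0.0935) in Il1r1KO and −0.49 (SE 0.28, adjusted p = 0.346) in Il1bKO, where the 4-week libraries lay below those of 2 weeks (8.2% of all tested genes), against −0.19 (SE 0.28, adjusted p = 0.914) in VF. DESeq2 called the Il1r1KO change (−0.86, adjusted p = 0.0458), and so did edgeR without Il1r1KO_4w 7 (−1.15, adjusted p = 0.0349). Over all alternatives its adjusted p ran from 0.0349 to 0.326.

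The knockout effect at 4 weeks minus that at 2 weeks gave no call among the 5 genes either, by edgeR or DESeq2, and none had an unadjusted p under 0.05. Over all tested genes 0.0147% were called for Il1bKO and 0% for Il1r1KO. The estimates for Il1bKO were −0.07 (SE 0.28) for Echdc2, −0.19 (SE 0.16) for Scp2, −0.04 (SE 0.17) for Tal1, −0.03 (SE 0.17) for Klhl9 and −0.30 (SE 0.39) for Ccdc171. For Il1r1KO the larger ones were −0.66 (SE 0.39, adjusted p = 0.949) for Ccdc171 and −0.43 (SE 0.28, adjusted p = 0.952) for Echdc2, and these errors leave room for changes of the size seen between genotypes in Scp2, Tal1 and Klhl9.

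CreERT2, like Echdc2, was lowest in WT, higher in VF and highest in the knockouts. The construct was at 243, 318, 311 and 277 CPM in VF_2w, 529, 568.2, 532 and 527 in Il1bKO_2w and 453, 595, 321 and 455 in Il1r1KO_2w. At 4 weeks it was at 388, 195 and 225 CPM in VF_4w, 828, 634 and 445 in Il1bKO_4w and 430, 426 and 448 in Il1r1KO_4w. Both knockouts lay above VF at 2 weeks, and each 4-week knockout library lay above all VF_4w libraries. The libraries labelled WT, with 1 CreERT2 read between them, are also the libraries with little Echdc2, so genotype and construct cannot be told apart there.

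Echdc2 had 1.48 ± 0.379 reads per CreERT2 read in VF, 1.19 ± 0.113 in Il1bKO and 1.47 ± 0.324 in Il1r1KO (SD, n = 7 each), with ranges that overlapped. Scp2 had 0.975 ± 0.192, 0.543 ± 0.0884 and 0.725 ± 0.179, and Ccdc171 0.169 ± 0.0604, 0.0342 ± 0.0107 and 0.0452 ± 0.0203. Klhl9 had 0.371 ± 0.103, 0.148 ± 0.0274 and 0.164 ± 0.0416, and Tal1 0.312 ± 0.0917, 0.176 ± 0.0269 and 0.231 ± 0.0609. CreERT2 itself averaged 2.08 times VF in Il1bKO and 1.6 times in Il1r1KO, so reads per CreERT2 read fall there for an unchanged gene too. For Ccdc171 and Klhl9 both knockouts, and for Scp2 and Tal1 Il1bKO alone, lay below VF without overlap. The share of all tested genes that did so was not computed, and nothing is read from it. Within groups of genotype and time, the deviation of Echdc2 from its group mean went with that of CreERT2 at Pearson r = 0.536 over the 21 mutant libraries (permutation of libraries within groups, two-sided p = 0.155, adjusted over the 5 genes 0.6). Spearman's rho was 0.265 (permutation p = 0.387, adjusted 0.737), and r was 0.501 without the 2 libraries farthest from the median of CreERT2. Within the batches, whose difference was not tested, r was −0.181 over the 12 libraries of 2 weeks (permutation p = 0.487) and 0.813 over the 9 of 4 weeks (permutation p = 0.121, adjusted 0.301), and 0.771 there without its 2 farthest libraries. By genotype, over 7 libraries each, r was 0.45 in VF, 0.914 in Il1bKO and −0.0526 in Il1r1KO (permutation p = 0.604, 0.0627 and 0.868, adjusted 0.937, 0.314 and 0.868), and −0.78, 0.416 and −0.559 without the 2 farthest libraries of each. Without VF_4w 6, Il1bKO_4w 5 and Il1r1KO_4w 5, r over all times fell to 0.087.

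For Scp2, r was 0.404 (permutation p = 0.24, adjusted 0.6; rho 0.229, permutation p = 0.442, adjusted 0.737), 0.449 without the 2 farthest libraries, −0.41 at 2 weeks and 0.806 at 4 weeks, and −0.04 without those 3 libraries. For Tal1 it was 0.0578 (permutation p = 0.796, adjusted 0.828; rho 0.121, permutation p = 0.649), and −0.0992 and 0.124 within the times. For Klhl9 it was −0.174 (permutation p = 0.471, adjusted 0.786; rho −0.255, permutation p = 0.32), and −0.155 and −0.245. For Ccdc171 it was −0.0671 (permutation p = 0.828, adjusted 0.828; rho 0.0377, permutation p = 0.897), and 0.209 and −0.262. None of the 5 relations passed, and without the 2 farthest libraries the last 3 were 0.148, −0.0492 and −0.0197.

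**Figure D4:**
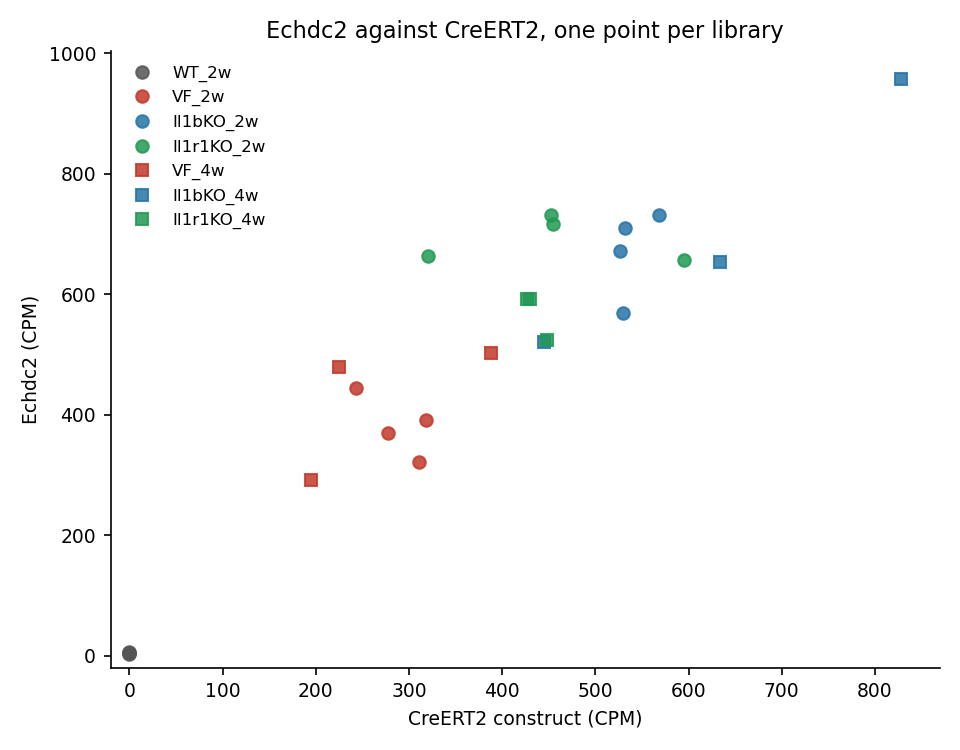
Echdc2 against the CreERT2 construct, both in CPM, with 1 point for each of the 25 libraries (circles: 2 weeks, squares: 4 weeks). The libraries labelled WT sit at the origin, the VF libraries at 195 to 388 CPM of CreERT2 and the knockout libraries at 321 to 828 CPM, to the right of the VF libraries of the same time, with Il1bKO_4w 5 at 828 CPM of CreERT2 and 956 CPM of Echdc2.

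The genes around them are counted beside all 13630 tested genes, which include Echdc2, Scp2, Tal1, Klhl9 and Ccdc171 themselves. Against WT, edgeR called 0.00734%, 0.044% and 0.0587% of all in VF, Il1bKO and Il1r1KO, and 310, 422 and 815 had an unadjusted p under 0.05. At shares this low, an absence of calls in sets of this size is not a result about these genes. Of 48 tested genes that start within 1 Mb of a member, none was called in VF, Il1bKO or Il1r1KO against WT by edgeR (1, 4 and 5 had an unadjusted p under 0.05), and DESeq2 called 0, 1 and 1. Of the 104 other genes between Ccdc171 and Tal1, which include some of the 48, none was called there either (1, 8 and 8 by unadjusted p, with 0, 1 and 1 by DESeq2). Of the 738 genes outside that stretch, which hold the rest of the 48, edgeR called none (21, 22 and 41 by unadjusted p, with 1, 1 and 2 by DESeq2). The DESeq2 call near a member was Gm26566 in both knockouts. Next to Echdc2 on its other side, Zyg11b, a ubiquitin ligase substrate receptor 50.4 kb away, averaged 48.8 CPM in WT_2w and 48.8 in VF_2w (log2 0.00, SE 0.27). Cpt2, a mitochondrial carnitine palmitoyltransferase 120.2 kb beyond Scp2, was at 49.6 and 44.4 CPM (−0.16, SE 0.19).

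Tal1 lies 13.2 kb from Stil, a centriole gene, and 17 kb from Pdzk1ip1, both of which are nearer to it than Scp2 is to Echdc2. Stil differed from WT by −0.29 (SE 0.28) in VF, 0.09 (SE 0.28) in Il1bKO and −0.23 (SE 0.28) in Il1r1KO, and Pdzk1ip1 by −0.36, −0.34 and −0.44 (SE 0.20 each), against the direction of Tal1 and not called (adjusted p of 0.805 or more). Near Klhl9, Hacd4 differed by −0.13, −0.06 and −0.15 (SE 0.20 each) and Mtap by −0.09, −0.10 and −0.11 (SE 0.13 each). Near Ccdc171, Cntln differed by 0.04, 0.06 and 0.17 (SE 0.14 each), and Psip1, a chromatin-bound coactivator 39.1 kb away, by 0.01, 0.23 and 0.25 (SE 0.10 each). None of these 4 was called in a genotype comparison by edgeR. Psip1 came nearest in Il1r1KO against VF (0.35, SE 0.08, adjusted p = 0.0678), where DESeq2 and limma voom called it.

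Over all 13630 tested genes, chosen ones included, edgeR called 0.139% in Il1bKO against VF, 0.169% in Il1r1KO against VF and 0.176% between the knockouts. By unadjusted p under 0.05 these were 1278, 1553 and 1917 genes. Against VF, edgeR called none of the 48 nearby and 104 intervening genes in Il1bKO (7 and 8 by unadjusted p, and 1 and 1 by DESeq2) and 1 of the 738 outside the stretch. In Il1r1KO it called Gm26566 (−1.22, SE 0.25, adjusted p = 0.0471), the 1 nearby call, and Fyb2 farther off in the stretch, and 1 of the 738 outside it. The Gm26566 call was lost when any of 18 single libraries was left out (adjusted p up to 0.125). It was also lost when the fit held no other groups than those compared (0.0623), and without WT_2w 3 and WT_2w 4 (0.0845). DESeq2 and limma voom called Gm26566 in Il1r1KO against VF too, and DESeq2 also in Il1bKO against VF. It shares a stretch with Klhl9, which was chosen by these differences. Fyb2, which encodes an adaptor protein, had 0 reads in all Il1r1KO_4w libraries and 3036, 104 and 1389 in VF_4w. Il1bKO_4w 5 also had 0 reads. At 2 weeks the groups overlapped, with 61 to 361 reads in VF_2w and 30 to 248 in Il1r1KO_2w. Over both times edgeR (adjusted p = 0.0122) and DESeq2 called Fyb2, while limma voom did not (0.219). The edgeR call of Fyb2 was lost without Il1r1KO_4w 5 (0.0743) or Il1r1KO_4w 6 (0.066). Between the knockouts none of the nearby or intervening genes was called by edgeR (5 and 13 by unadjusted p, with 0 and 1 by DESeq2), and 1 of 738 was.

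**Figure D5:**
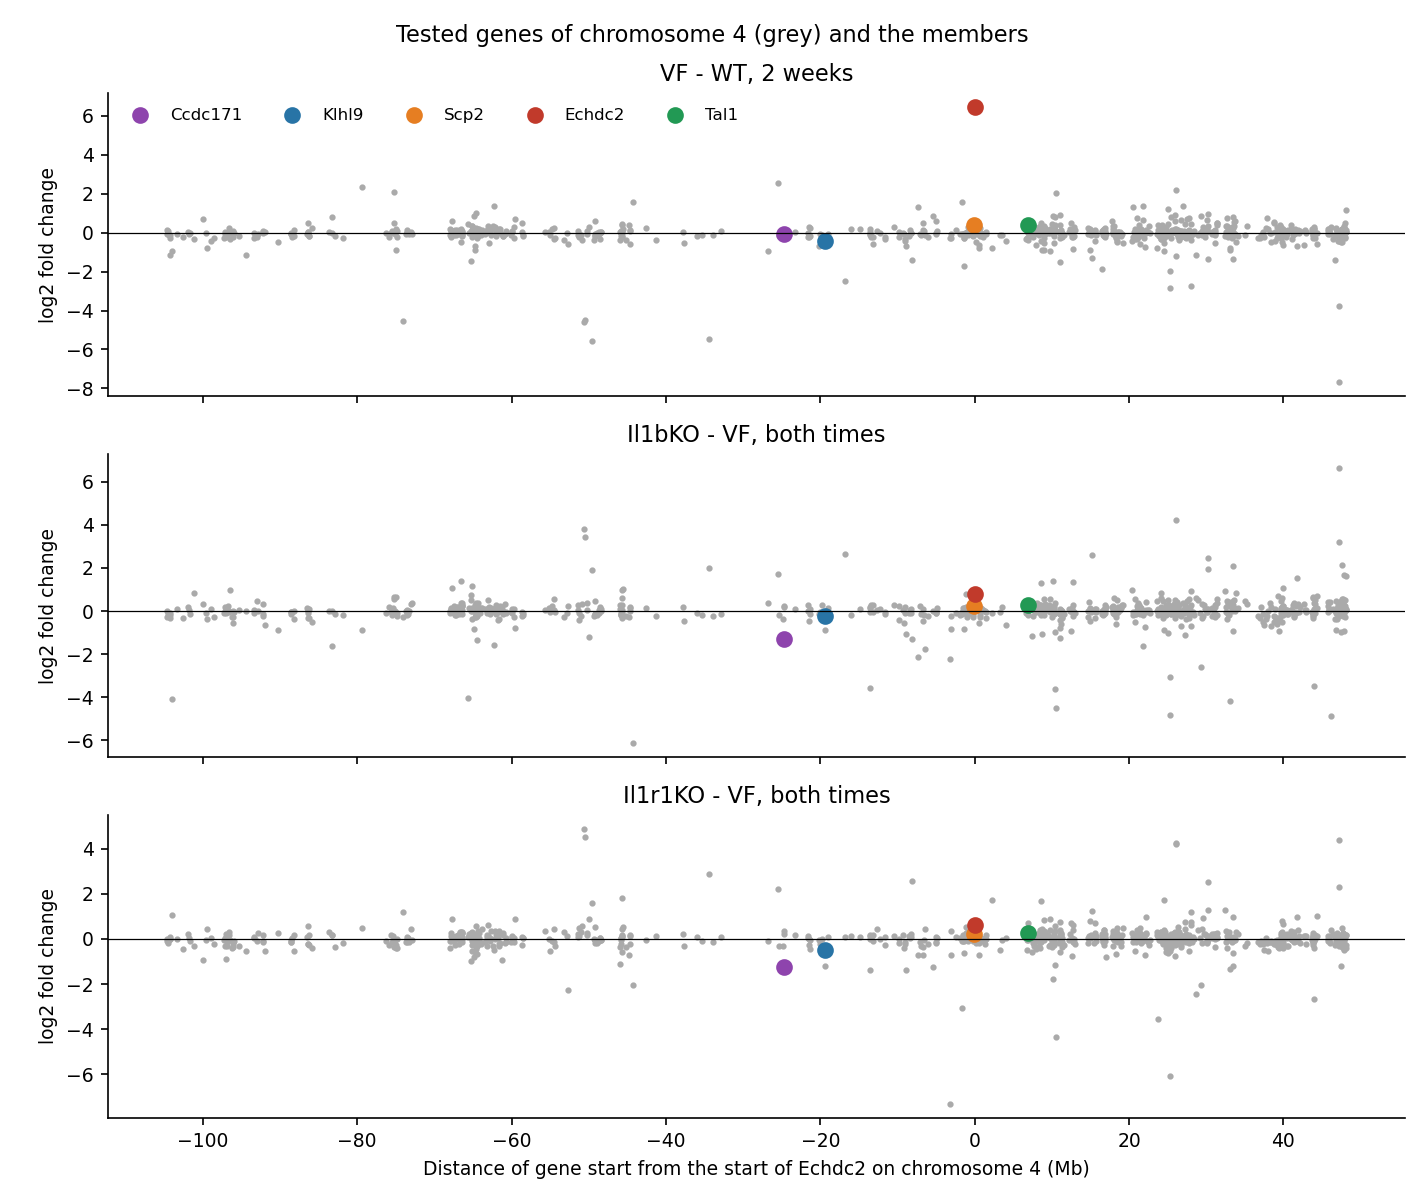
Log2 difference of each tested gene of chromosome 4 (grey) and of the 5 genes (colour) against the distance of its start from that of Echdc2 in Mb, for VF against WT at 2 weeks and for each knockout against VF. Echdc2 stands at 6.45 in the upper panel, with Scp2 at 0.38 beside it and most neighbours close to 0.

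Across the 25 libraries the 5 genes fell into those that went with Echdc2 and those that went against it, which their choice fixes in part. Over log2 CPM, the genes most like Echdc2 of the 13629 others were Scp2 (Pearson r 0.846), Tal1 (0.816) and Fgf3 (0.799), a fibroblast growth factor. The most like Scp2 were Echdc2, Tal1 (0.793) and Wdr70 (0.721), and the most like Tal1 were Echdc2, Slc43a1 (0.815) and Ap2s1 (0.806). Klhl9 was the least like Echdc2 of all, at −0.787, and was most like Gm26566 (0.833), Dnajb4 (0.751) and Tmem254b (0.741). Ccdc171 was most like Gm21748 (0.834), Mid1 (0.832) and Slc25a37 (0.786), while Tal1 came 13628 of 13629 for it, at −0.781. The points share libraries and the genotype differences that chose the genes.

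Within groups of the 21 mutant libraries, where those differences are removed, Echdc2 and Scp2 still went together at r = 0.806, and ranked 15 and 16 for each other. The genes most like Echdc2 there were Ash1l (0.897), Izumo4 (0.869) and Rnf25 (0.863), and the most like Scp2 were Tmed4 (0.906), Cytip (0.887) and Capg (0.855). Tal1 no longer went with Echdc2 (0.099) and was nearest to Pdzd9 (0.857), Eif3d (0.855) and Mrpl30 (0.851). Klhl9 was at 0.057 with Echdc2 and nearest to Ifih1 (0.811), Lsm10 (0.78) and Gkn3 (0.775), and Ccdc171 was at 0.036 and close to Rassf4 (0.742) and Slc25a27 (0.736). These are descriptions over libraries that share a batch within each time, with no test. In both Echdc2 and Scp2, VF_4w 6 was the lowest library of its group and Il1bKO_4w 5 the highest of its own. The r of this pair without these libraries was not computed.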

How the data were processed

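The authors deposited gene-level read counts, not normalized, for 25 libraries, with 13641 genes and 4 construct sequences. The submitters' processing notes name the mm10 genome, STAR 2.7.10a, featureCounts, FastQC 0.11.5 and R 4.2.2, and the version of featureCounts is not given in the sources used here. Per the labels' protocols, RNA was extracted with PicoPure and made into unstranded SMART-Seq v4 libraries. Each column was assigned through the genotype and number in its name. Positions came from GENCODE vM21 for 13623 genes, and promoter sequences from RefSeq (GRCm38.p6).

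The quasi-likelihood test of edgeR 4.0.16 in R 4.3.3 (TMM factors, robust, low genes removed with filterByExpr) ran on 13630 genes in 1 fit of 7 groups. Constructs were left out of it. P-values were adjusted by Benjamini-Hochberg, with a threshold of 0.05. The common dispersion was 0.169. CPM use TMM factors, and log2 CPM a prior count of 2. Differences over both times are means of the 2 within-time differences. The scripts were tested on simulated data. The 5 genes and all lists were chosen with earlier results of these data known. The text names the 5 genes and constructs, the nearest tested gene on each side, called genes between the 5, the 3 genes of highest correlation, and of each list without a call the 2 of lowest p, except for 2 genes that are not reported here. Correlations used 100000 permutations within groups. Alternatives were RLE factors, DESeq2 1.42.0, limma 3.58.1 voom, no filter, a fit without the groups not compared, a replicate block and leaving out libraries. Eci3 and several listed blood cell markers are not analysed here.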

Additional observations from a re-analysis of the deposited data

Results flagged for a closer look

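In 4 of 41 groups of 4 or 7 libraries, the highest or lowest library lay far from the others on the log2 CPM scale. Chance alone flags about 1 in 20 such groups. Klhl9 in VF_2w had a gap of 0.87 of the group's range, since VF_2w 2 was at 121 CPM and the other libraries at 86.9 to 90.8. Ccdc171 in VF_2w had a gap of 0.836, with VF_2w 1 at 54.3 CPM and the others at 44.0 to 45.6. Tal1 over the 7 Il1r1KO libraries had a gap of 0.599, with Il1r1KO_4w 5 at 133.5 CPM and the next library at 103.1. CreERT2 in Il1bKO_2w had a gap of 0.878, with Il1bKO_2w 2 at 568.2 CPM and the others at 527 to 532. The cause of these gaps was not tested.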

How the results depend on the processing

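Every difference of the 5 genes from WT and from VF kept its direction under all alternatives run, and 1 moved by more than its spread: Ccdc171 in Il1r1KO against VF was −1.66 with limma voom. Between the knockouts only Klhl9 kept its sign, and the other 4 differences, all small, changed sign under at least 1 alternative. With time, limma voom reversed Ccdc171 in VF (0.11) and Echdc2 in Il1bKO (−0.18), and DESeq2 called 1 gene, Ccdc171 in Il1r1KO. Leaving out VF_4w 6, Il1bKO_4w 5 and Il1r1KO_4w 5, an alternative chosen after seeing the data like that without WT_2w 3 and WT_2w 4, turned Echdc2 (−0.19) and Klhl9 (−0.0009) with time in Il1bKO, Tal1 in the Il1r1KO effect at 4 minus 2 weeks (−0.074) and the Scp2 correlation with CreERT2 (−0.04).

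With single libraries left out, log2 changes with time that turned ran from −0.044 to 0.17 (Scp2 in VF), −0.0035 to 0.082 (Klhl9 in Il1bKO) and −0.19 to 0.26 (Echdc2 in Il1bKO). Il1bKO effects at 4 minus 2 weeks ran from −0.34 to 0.11 (Echdc2), −0.13 to 0.030 (Tal1), −0.16 to 0.017 (Klhl9) and −0.47 to 0.083 (Ccdc171), and Il1r1KO effects from −0.16 to 0.17 (Tal1) and −0.12 to 0.094 (Klhl9). Correlations with CreERT2 ran from −0.194 to 0.0848 (Ccdc171) and −0.107 to 0.194 (Tal1). Members called with time in Il1r1KO numbered 0 to 1.

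Replicate numbers did not pair the libraries: same-numbered deviations correlated at −0.148 to 0.08, and 3 of 25 libraries correlated best with their own number. The numbers are nested in time, so changes with time within a genotype had no block fit. With the replicate block, edgeR called 0 genes in each set of chromosome 4 in Il1r1KO against VF, Klhl9 in the Il1r1KO effect was −0.0004, and the correlations with CreERT2 were 0.0192 (Ccdc171), −0.158 (Scp2) and −0.773 (Tal1, permutation p adjusted 0.0085). The cause of these changes was not tested.

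Calls are given in turn for genes near a member, between the first and last member, outside that stretch, and on the 4 lists. DESeq2 called 0, 0, 1 and 0 for VF minus WT. It called 1 in each set for Il1bKO minus WT and 1, 1, 2 and 2 for Il1r1KO minus WT. For Il1bKO minus VF it called 1, 1, 6 and 0, for Il1r1KO minus VF 2, 2, 6 and 2, and between the knockouts 0, 1, 7 and 0. Limma voom called 1, 1, 0 and 0 for Il1bKO minus WT, 1, 1, 0 and 1 for Il1r1KO minus WT, 2, 2, 12 and 5 for Il1r1KO minus VF, and 0 outside the stretch in the other knockout comparisons. Without the 3 libraries of 4 weeks named above, Il1r1KO minus VF gave 2, 3, 10 and 5, Il1r1KO minus WT 1, 2, 0 and 1, Il1bKO minus WT 1 outside the stretch, Il1bKO minus VF 1 on the lists, and the knockouts 2 outside. A fit of no other groups gave 0, 1 and 2 on chromosome 4 for Il1r1KO minus VF and 0 outside the stretch between the knockouts. Without WT_2w 3 and WT_2w 4, Il1r1KO minus VF gave 0 and 1 in the first sets. With single libraries left out, Il1r1KO minus VF gave 0 to 2, 0 to 3, 0 to 6 and 0 to 3, the knockouts 1 to 9 outside the stretch, Il1bKO minus VF 0 to 3 there, and all other counts 0 to 1.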
